A study of Homo sapiens with 32 samples.

Results

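The 10 genes described here encode the kinases of the DNA damage and replication checkpoints and the proteins that bring those kinases to damaged DNA. They are ATR, its partner ATRIP, ATM, the activators TOPBP1, CLSPN and RAD17, the effector kinases CHEK1 and CHEK2, and the CDK1-inhibiting kinases WEE1 and PKMYT1. They were taken by gene symbol from the 60332 genes of the count table, and each of the 10 symbols was found on 1 row. ATR and ATM are kinases of the PI3K-related family, which sense replication stress and broken DNA. ATR acts mainly through CHEK1 and ATM mainly through CHEK2, and both routes restrain the CDC25 phosphatases. WEE1 and PKMYT1 phosphorylate CDK1 directly and hold it inactive until the cell may enter mitosis, while p53 enforces the arrest by inducing the CDK inhibitor CDKN1A.

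Polyadenylated RNA was measured in 32 libraries, 2 in each of 16 groups. The first of 3 experiments used MCF10A, a non-transformed human breast epithelial line, 5 days after 10 Gy of ionising radiation. Its groups were XRCC4 knockout (KO), STING KO and cGAS KO cells, wild-type (WT) cells with a CDK1 inhibitor (CDK1i), and WT cells that were untreated or irradiated with DMSO and collected after 3 or 5 days. The second experiment used MCF10A cells 3 days after 10 Gy. Its groups were cells without both XRCC4 and p53 (DKO) with and without an ATR inhibitor (ATRi), XRCC4 KO cells with and without ATRi, p53 KO cells, and WT cells. The third used hTERT RPE-1, a retinal pigment epithelial line immortalised with telomerase, 3 days after 10 Gy with ATRi. Its groups were p53 KO cells, cells labelled WT cGAS, and WT cells. XRCC4 is a core factor of end joining, and cGAS and STING form the cytosolic DNA sensing route. The inhibitors were added 1 h before irradiation and kept until collection. Knockout lines were lentiviral CRISPR-Cas9 lines grown from single cells, and the labels do not say how many clones were measured, so a difference between lines and a difference between clones cannot be told apart. No knockout was measured without irradiation. The labels name a vehicle only for the irradiated WT groups of the first experiment, and leave unsaid if a group's libraries are separate cultures. The p-values therefore measure only the spread between libraries, which may be technical.

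The libraries held 5590061 to 18585999 counts. Replicates of 4 WT groups of the first experiment and of its STING KO group lay far apart, with a chi-square per gene of 21.5 to 45.1 between the 2 libraries. In the other 11 groups it was 1.55 to 3.38. MCF10A libraries held 10 of 10 basal epithelial markers at 1 FPKM or more, and RPE-1 libraries held OTX2 and MITF while RPE65, RLBP1, TYRP1, BEST1 and TTR stayed below 1 FPKM, so the retinal label rests on few of its 8 markers. Of 8 immune and blood markers 6, among them PTPRC and CD3E, were below 1 FPKM in every library. CD68 was at 14.7 to 143 FPKM in MCF10A and 71.4 to 351 FPKM in RPE-1 libraries, and CD14 at 2.25 to 63.5 and 0.114 to 1.85 FPKM, and their part in the results was not tested. The cGAS gene MB21D1 was at 0.347 and 0.363 FPKM in cGAS KO libraries, against 4.91 and 4.72 FPKM in irradiated WT libraries at 5 days. The STING gene TMEM173 was at 6.67 and 5.69 FPKM in STING KO libraries, against 49.3 and 33.5 FPKM in the same WT libraries. XRCC4 transcript was at 5.55 and 5.42 FPKM in XRCC4 KO libraries, against 4.92 and 4.91 FPKM in WT libraries of the second experiment, and a small edit in the coding sequence need not change that level. It was at 10.1 and 11.7 FPKM in DKO, against 9.25 and 11.9 FPKM in p53 KO, and in the first experiment at 4.27 and 3.63 FPKM in XRCC4 KO, against 6.37 and 5.02 FPKM in irradiated WT libraries at 5 days. In RPE-1 cells MB21D1 was at 0.144 and 0.123 FPKM in p53 KO and 154 and 158 FPKM in WT cGAS libraries, against 0.042 and 2.63 FPKM in WT libraries, which differ from each other.

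The deposited intervals of the genes, on hg19, are as follows. ATR lies on chr3:142168077-142297668, ATRIP on chr3:48488114-48509044, TOPBP1 on chr3:133317019-133380737, ATM on chr11:108027942-108338258 and CHEK1 on chr11:125439112-125551018. WEE1 lies on chr11:9595228-9615004, CHEK2 on chr22:29083731-29153503, PKMYT1 on chr16:3013945-3030540, CLSPN on chr1:36185819-36235568 and RAD17 on chr5:68646811-68710628. All 10 are annotated as protein-coding, and several intervals span neighbouring genes. Exons of ATRIP overlap those of TREX1 on the same strand, and its counts had decimals in 32 of 32 libraries. Exons of CHEK1 overlap STT3A on the same strand, which had 114340 counts over all libraries against 16942 for CHEK1. RAD17 overlaps TAF9 on the opposite strand, which had 43770 counts against 13930 for RAD17. PKMYT1 overlaps PAQR4, ATM overlaps NPAT and CHEK2 overlaps HSCB on the opposite strand. The sources used here do not state if counting used strand, so reads in these overlaps cannot be assigned with certainty.

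RefSeq promoter sequences on GRCh38.p14 were available for 8 of the 10 genes. The 250 bases before the annotated start are shown for 5 of them, CLSPN, CHEK2 and TOPBP1 because their RNA was higher without p53 and ATM and ATR because theirs was not higher. Capitals mark matches, on either strand, to 3 patterns known from promoters of cell cycle genes. They are the CHR, spelled TTTGAA, the CCAAT box, spelled by its name, and the E2F core, spelled TTCCCGC, or with its second form TTCGCGC, its next form TTGGCGC and its last form TTGCCGC. The windows are chr1:35769979-35770228 for CLSPN, chr22:28741821-28742070 for CHEK2, chr3:133661942-133662191 for TOPBP1 and chr3:142578734-142578983 for ATR, all on the minus strand, and chr11:108222817-108223066 on the plus strand for the first of 2 ATM starts in the table.
CLSPN: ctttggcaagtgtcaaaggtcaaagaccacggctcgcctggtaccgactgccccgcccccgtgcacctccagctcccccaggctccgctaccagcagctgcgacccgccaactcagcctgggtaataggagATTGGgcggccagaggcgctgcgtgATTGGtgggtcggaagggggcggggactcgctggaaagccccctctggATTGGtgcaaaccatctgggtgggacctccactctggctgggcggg
CHEK2: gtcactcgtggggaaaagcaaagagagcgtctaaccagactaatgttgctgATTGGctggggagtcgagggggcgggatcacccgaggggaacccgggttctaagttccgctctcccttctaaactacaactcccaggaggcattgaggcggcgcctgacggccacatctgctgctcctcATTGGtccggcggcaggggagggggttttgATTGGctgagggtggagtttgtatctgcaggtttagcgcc
TOPBP1: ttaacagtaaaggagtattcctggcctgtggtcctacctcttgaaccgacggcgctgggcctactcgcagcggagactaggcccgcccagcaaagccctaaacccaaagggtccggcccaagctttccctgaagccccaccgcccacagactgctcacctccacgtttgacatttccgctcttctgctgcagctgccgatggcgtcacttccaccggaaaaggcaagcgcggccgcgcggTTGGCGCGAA
ATM: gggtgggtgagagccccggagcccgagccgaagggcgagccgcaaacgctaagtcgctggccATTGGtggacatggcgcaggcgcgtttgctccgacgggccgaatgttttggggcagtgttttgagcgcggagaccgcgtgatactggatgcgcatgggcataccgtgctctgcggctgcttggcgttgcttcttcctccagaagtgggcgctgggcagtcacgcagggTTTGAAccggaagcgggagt
ATR: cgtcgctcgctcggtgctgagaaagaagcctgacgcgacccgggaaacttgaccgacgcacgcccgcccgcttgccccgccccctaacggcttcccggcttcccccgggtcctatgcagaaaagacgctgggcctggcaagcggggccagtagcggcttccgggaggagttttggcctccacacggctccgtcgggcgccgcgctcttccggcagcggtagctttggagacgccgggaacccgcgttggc
CLSPN held 3 CCAAT matches, which begin 119, 94 and 46 bases before the start, and CHEK2 held 3, which begin 199, 70 and 40 bases before it. TOPBP1 held 2 E2F core matches that overlap each other and begin 10 and 7 bases before the start. The ATM window held 1 CCAAT match and 1 CHR match, and the ATR window held no match to the 3 patterns. A CCAAT match was present in any window of 6 of the 8 genes with a sequence, and in any window of 37.0% of all 27305 genes in the promoter table. An E2F core match was present in 1 of the 8 genes and in 12.97% of all genes, and a CHR match in 2 of the 8 and in 16.1% of all genes, counted in the same way. These matches describe letters and do not show that a factor binds.

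On the length-scaled FPKM scale, the median over the 26 MCF10A libraries was highest for TOPBP1 at 30.5 FPKM, CHEK1 at 29.7 FPKM and ATM at 26.7 FPKM. PKMYT1 had a median of 14.6, CHEK2 13.5, RAD17 12.8, WEE1 12.3 and ATR 12.3 FPKM, ATRIP 6.33 FPKM and CLSPN 2.38 FPKM. The range over libraries set the genes apart more than the median did. CLSPN ran from 0.146 to 14.5 FPKM, a 99.2-fold range, and PKMYT1 from 1.96 to 90.4 FPKM, a 46.1-fold range. The lowest CLSPN value came from replicate 2 of XRCC4 KO at 5 days, which held only 8 counts of the gene. ATR, at the other end, ran from 8.97 to 17.9 FPKM, a 2.00-fold range. In the 6 RPE-1 libraries ATM had the highest median at 21.9 FPKM, followed by RAD17 at 19.5 and WEE1 at 18.7 FPKM, and CLSPN the lowest at 3.58 FPKM.

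Loss of p53 in irradiated MCF10A cells was set against WT at 3 days. Of the 10 genes, 7 rose and 1 fell, by edgeR's quasi-likelihood test with Benjamini-Hochberg adjustment over all genes and an adjusted p below 0.05, while 25.8% of the 16632 genes tested were called higher and 26.9% lower. The largest changes were in the mediator CLSPN, which holds CHEK1 next to ATR, and in both CDK1-inhibiting kinases. CLSPN was at 31.6 and 32.1 CPM, counts scaled to library size, in p53 KO libraries, against 7.34 and 9.25 CPM in WT libraries. PKMYT1, the membrane-bound CDK1 kinase, was at 59.2 and 53.3 CPM in p53 KO, against 17.6 and 17.0 CPM in WT. WEE1, its nuclear counterpart, was at 53.4 and 57.6 CPM in p53 KO, against 20.6 and 22.2 CPM in WT. The groups did not overlap in any of these 3 genes. With 2 libraries a group, a lack of overlap carries little weight on its own, here and below. The log2 fold changes were 1.93 ± 0.11 for CLSPN (adjusted p = 2.74e-16), 1.71 ± 0.09 for PKMYT1 (5.78e-17) and 1.37 ± 0.08 for WEE1 (2.21e-16), where ± is the standard error and each group has 2 libraries.

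Smaller increases were found for CHEK2 (0.84 ± 0.09, edgeR adjusted p = 3.11e-09), for TOPBP1, which activates ATR (0.57 ± 0.06, 3.71e-10), and for ATRIP (0.44 ± 0.10, 0.000415). CHEK1 rose by 0.22 ± 0.07 only (edgeR adjusted p = 0.00458), at 41.8 and 44.3 CPM in p53 KO against 37.8 and 35.9 CPM in WT, and its call was lost with DESeq2 (adjusted p = 0.0609) and without WT replicate 2 (0.08) or p53 KO replicate 2 (0.0553). ATM was lower in p53 KO on counts, at -0.35 ± 0.07 on the log2 scale (edgeR adjusted p = 0.000376), but 0.15 on FPKM, where the median of all genes was itself shifted by 0.15. ATM was at 53.3 and 64.6 CPM in p53 KO, against 75.9 and 73.7 CPM in WT. ATR was at 52.1 and 59.7 CPM in p53 KO, against 58.0 and 56.2 CPM in WT, with a log2 fold change of -0.04 (95% interval -0.17 to 0.10). RAD17, which loads the checkpoint clamp, had a log2 fold change of 0.15 with a 95% interval of -0.002 to 0.303.

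The lists of genes around the kinases moved in the same samples. Of 9 clamp and clamp loader genes 7 rose and 1 fell, with RFC3 at 51.8 CPM in p53 KO against 13.7 CPM in WT and HUS1, a clamp subunit, at 28.1 against 37.7 CPM. All 7 genes for single-stranded DNA binding and fork protection rose, with a median log2 fold change of 0.93 beside 0.01 over all genes. Of 12 targets at mitotic entry 11 rose, among them PLK1 (2.27 ± 0.06) and CCNA2 (2.29 ± 0.07), and CDKN1A fell (-3.27 ± 0.04). All 25 mitotic genes and all 25 replication genes rose. The mean log2 CPM of the mitotic list was 7.02 and 7.10 in p53 KO libraries, against 4.88 and 4.86 in WT libraries, and its part in the result for the kinases was not tested. In these bulk samples, a change in the share of cells of a kind and a change in RNA per cell cannot be told apart.

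**Figure D1:**
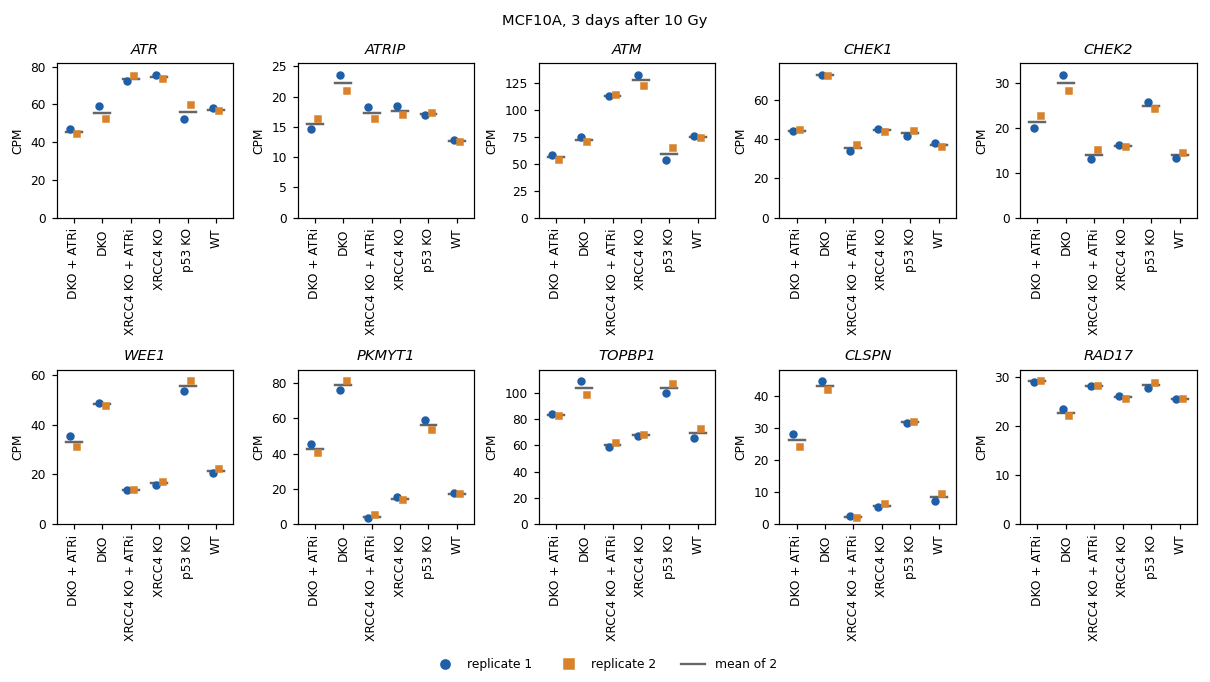
Level of each of the 10 genes in CPM (vertical axis, linear, from 0) in the 6 MCF10A groups collected 3 days after 10 Gy. Circles and squares are the 2 libraries of a group and the bar their mean; WEE1, PKMYT1, TOPBP1, CLSPN and CHEK2 sit higher in the groups without p53, and ATM and ATR sit highest in the XRCC4 KO groups.

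XRCC4 KO cells were compared with WT at the same time. Of the 10 genes, 4 rose and 3 fell relative to WT, while 28.6% of genes tested were called higher and 27.9% lower. These counts lie near those shares and are not read as particular to the 10 genes. The apical kinases ATM and ATR were among the genes that rose on counts. ATM was at 132.8 and 121.8 CPM in XRCC4 KO libraries, against 75.9 and 73.7 CPM in WT libraries. ATR was at 75.9 and 73.3 CPM in XRCC4 KO, against 58.0 and 56.2 CPM in WT. Neither gene's groups overlapped, and the log2 fold changes were 0.77 ± 0.07 for ATM (edgeR adjusted p = 3.39e-09) and 0.39 ± 0.06 for ATR (6.1e-06). ATRIP rose by 0.49 ± 0.10 (edgeR adjusted p = 0.000122) and CHEK1 by 0.27 ± 0.07 (0.000831). On FPKM ATM (0.41), ATR (0.22) and ATRIP (0.21) were also higher but not called, and CHEK1 was called. The median of all genes on FPKM was shifted by -0.205 in this comparison.

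The genes that fell in XRCC4 KO were WEE1, CLSPN and PKMYT1. WEE1 was at 15.9 and 17.1 CPM in XRCC4 KO, against 20.6 and 22.2 CPM in WT (-0.38 ± 0.09, edgeR adjusted p = 0.000725). The WEE1 call held in every setting on counts but was lost on FPKM (limma adjusted p up to 0.189). CLSPN was at 5.19 and 6.11 CPM in XRCC4 KO, against 7.34 and 9.25 CPM in WT (-0.57 ± 0.15, 0.00149), and lost its call without WT replicate 2 (adjusted p = 0.103). PKMYT1 differed by -0.26 ± 0.11 (edgeR adjusted p = 0.0448), and that call was lost with DESeq2 (0.102) and without any of 3 libraries, WT replicate 1 (0.173) or 2 (0.106) or XRCC4 KO replicate 2 (0.345). Of 10 double-strand break genes 4 rose and 4 fell. RAD50 was at 225 CPM in XRCC4 KO against 100.2 CPM in WT, and NBN at 82.5 against 42.4 CPM, both subunits of the complex that recruits ATM. PRKDC, the third break-sensing kinase of the family, rose by 0.78 ± 0.04. Of the 25 mitotic genes 23 fell, and the list level was 4.38 and 4.33 in XRCC4 KO, against 4.88 and 4.86 in WT.

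DKO cells were also set against XRCC4 KO cells, and all 10 genes were called. Of these 7 rose and 3 fell, while 32.3% of genes tested were called higher and 32.7% lower. In every setting on counts 8 of the 10 calls held. CLSPN was at 44.8 and 41.8 CPM in DKO libraries, against 5.19 and 6.11 CPM in XRCC4 KO libraries (2.94 ± 0.11, edgeR adjusted p = 7.47e-21). PKMYT1 was at 76.2 and 81.2 CPM in DKO, against 15.5 and 13.4 CPM in XRCC4 KO (2.44 ± 0.09, 2.95e-21). WEE1 was at 48.7 and 47.7 CPM in DKO, against 15.9 and 17.1 CPM in XRCC4 KO (1.55 ± 0.08, 2.16e-17). The groups did not overlap in any of these 3 genes.

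CHEK1 rose to 72.8 and 71.9 CPM in DKO, against 45.1 and 43.6 CPM in XRCC4 KO (0.71 ± 0.06, edgeR adjusted p = 4.45e-12), and CHEK2 to 31.99 and 28.4 CPM in DKO, against 16.2 and 15.9 CPM in XRCC4 KO (0.91 ± 0.09, 1.4e-10). TOPBP1 (0.62 ± 0.06) and ATRIP (0.33 ± 0.09) also rose, and ATRIP lost its call without XRCC4 KO replicate 2 or DKO replicate 1. ATM fell to 74.9 and 69.8 CPM in DKO, against 132.8 and 121.8 CPM in XRCC4 KO (-0.82 ± 0.07, edgeR adjusted p = 7.63e-10). ATR fell to 58.9 and 52.3 CPM in DKO, against 75.9 and 73.3 CPM in XRCC4 KO (-0.42 ± 0.06, 8.61e-07). On FPKM ATM (-0.19) and ATR (-0.27) were lower but not called. RAD17 was lower on counts (-0.18 ± 0.08, edgeR adjusted p = 0.0383) but 0.11 on FPKM, where the median of all genes was shifted by 0.28. Its call was lost with DESeq2 (adjusted p = 0.237), and in edgeR with RLE scaling (0.0524) and with only the groups compared (0.0639). It was also lost without DKO replicate 2 or either XRCC4 KO library. Around them, 8 of 9 clamp and clamp loader genes and 11 of 12 mitotic entry targets rose, and CDKN1A fell to 182 CPM in DKO, against 1888 CPM in XRCC4 KO. The mitotic list was at 7.44 and 7.44 in DKO, against 4.38 and 4.33 in XRCC4 KO.

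The effect of losing p53 differed with XRCC4 status for 6 of the genes by the test of the difference itself, while 21.3% of genes tested were called higher in that test and 23.1% lower. The p53 effect in XRCC4-null cells minus that in WT cells was 1.01 ± 0.17 for CLSPN (edgeR adjusted p = 9.52e-06), 0.74 ± 0.13 for PKMYT1 (2.19e-05) and 0.48 ± 0.09 for CHEK1 (3.81e-05). It was negative for ATM (-0.46 ± 0.10, 0.000672), ATR (-0.39 ± 0.09, 0.000867) and RAD17 (-0.33 ± 0.11, 0.0115). The p53 effect on ATM was -0.82 without XRCC4, against -0.35 with it, and that on ATR -0.42, against -0.04. The RAD17 call was lost with DESeq2 (adjusted p = 0.155) and without DKO replicate 2 (0.0509). For WEE1 the difference was 0.18, with a 95% interval of -0.05 to 0.42. On FPKM 2 of these 6 calls were made.

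DKO cells compared with p53 KO cells carried 6 genes that rose and 2 that fell, with 24.3% of genes tested called higher and 24.9% lower. CHEK1 differed most, at 72.8 and 71.9 CPM in DKO libraries against 41.8 and 44.3 CPM in p53 KO libraries (0.75 ± 0.06, edgeR adjusted p = 1.63e-12). PKMYT1 (0.48 ± 0.07), CLSPN (0.44 ± 0.08), ATRIP (0.38 ± 0.09), ATM (0.30 ± 0.07) and CHEK2 (0.27 ± 0.08) rose, while RAD17 (-0.31 ± 0.07) and WEE1 (-0.20 ± 0.07) fell. The calls for CHEK2 and WEE1 were lost with DESeq2 (adjusted p = 0.116 and 0.171), that for ATM without p53 KO replicate 1 (0.062) and that for ATRIP without DKO replicate 1 (0.0513). TOPBP1 was at 109.0 and 98.2 CPM in DKO, against 99.5 and 107.1 CPM in p53 KO, and its groups overlapped. For CHEK1, XRCC4 KO libraries stood at 45.1 and 43.6 CPM, so DKO libraries were above those of both single knockouts.

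The ATR inhibitor, which blocks the enzyme and not its transcript, was added to both XRCC4-null lines. In DKO cells it changed all 10 genes, 1 higher and 9 lower, while 25.2% of genes tested were called higher and 32% lower. CHEK1, the direct substrate of ATR, fell to 44.0 and 44.4 CPM in DKO with ATRi, against 72.8 and 71.9 CPM in DKO without it (-0.71 ± 0.06, edgeR adjusted p = 2.82e-12). PKMYT1 fell to 45.3 and 40.2 CPM with ATRi, against 76.2 and 81.2 CPM without it (-0.88 ± 0.07, 5.18e-12). CLSPN fell to 28.3 and 24.0 CPM with ATRi, against 44.8 and 41.8 CPM without it (-0.73 ± 0.08, 4.3e-09). WEE1 (-0.54 ± 0.07), ATRIP (-0.52 ± 0.09), CHEK2 (-0.50 ± 0.08), ATM (-0.38 ± 0.07), TOPBP1 (-0.32 ± 0.05) and ATR itself (-0.29 ± 0.07) fell less. RAD17 rose to 28.97 and 29.2 CPM with ATRi, against 23.4 and 22.1 CPM without it (0.35 ± 0.07, edgeR adjusted p = 0.000108). On FPKM with a pseudocount of 0.1, 2 of the 10 calls were made, on a scale where the median of all genes was shifted by 0.17 in this comparison.

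In XRCC4 KO cells, which have p53, ATRi lowered 3 of the 10 genes and raised 0, while 7.16% of genes tested were called higher and 10.8% lower. DESeq2 also called 3 genes, and 5 were called without the low-count filter and 1 on FPKM. PKMYT1 fell to 3.56 and 4.89 CPM with ATRi, against 15.5 and 13.4 CPM without it (-1.78 ± 0.14, edgeR adjusted p = 4.36e-11). CLSPN fell to 2.35 and 1.81 CPM with ATRi, against 5.19 and 6.11 CPM without it (-1.43 ± 0.20, 2.35e-06). CHEK1 fell to 34.0 and 36.8 CPM with ATRi, against 45.1 and 43.6 CPM without it (-0.33 ± 0.07, 0.000519). ATR differed by -0.02 with a 95% interval of -0.15 to 0.11. The mitotic list was at 2.96 and 2.92 with ATRi, against 4.38 and 4.33 without it, and in DKO it was at 6.34 and 6.33 with ATRi, against 7.44 and 7.44 without it.

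The ATRi effect differed between the lines for 5 of the genes, with 13.3% of genes tested called higher and 21.3% lower in the test of the difference. The effect in DKO minus that in XRCC4 KO was 0.90 ± 0.17 for PKMYT1 (edgeR adjusted p = 6.76e-05) and 0.70 ± 0.22 for CLSPN (0.0137), which fell more in XRCC4 KO. It was -0.48 ± 0.13 for ATRIP (0.00513), -0.39 ± 0.09 for CHEK1 (0.000842) and -0.28 ± 0.09 for ATR (0.017), which fell more in DKO. The calls for ATR and ATRIP were lost with DESeq2, CLSPN lost its call without DKO ATRi replicate 1, XRCC4 KO replicate 2 or XRCC4 KO ATRi replicate 2 (0.0504 to 0.137), and no gene was called on FPKM, while the PKMYT1 and CHEK1 differences held in every setting on counts.

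With ATRi present in both lines, DKO against XRCC4 KO gave 6 genes higher and 2 lower, while 35.4% of genes tested were called higher and 36% lower. CLSPN was at 28.3 and 24.0 CPM in DKO, against 2.35 and 1.81 CPM in XRCC4 KO (3.64 ± 0.14, edgeR adjusted p = 1.63e-20). PKMYT1 was at 45.3 and 40.2 CPM in DKO, against 3.56 and 4.89 CPM in XRCC4 KO (3.34 ± 0.12, 1.05e-21). WEE1 rose by 1.28 ± 0.09, CHEK2 by 0.61 ± 0.09, TOPBP1 by 0.46 ± 0.06 and CHEK1 by 0.32 ± 0.06. ATM fell to 58.4 and 53.3 CPM in DKO, against 113.0 and 113.5 CPM in XRCC4 KO (-1.02 ± 0.07, edgeR adjusted p = 2.03e-11), and ATR fell by 0.70 on the log2 scale (3.01e-11). All 8 calls held in every setting on counts. On FPKM ATM (-0.23) and ATR (-0.32) were lower but not called, while the other 6 calls held there too. In this comparison the median of all genes on FPKM was shifted by 0.47.

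**Figure D2:**
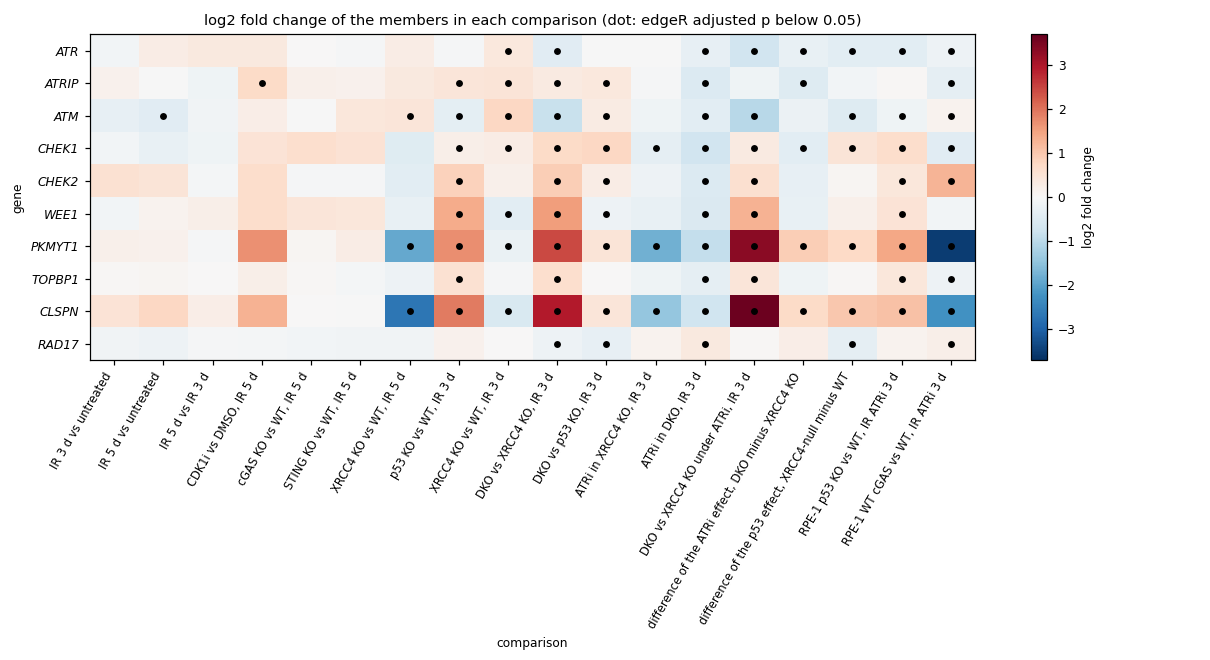
Log2 fold change of each gene (rows) in each of the 18 comparisons (columns), as colour, with a dot where the adjusted p was below 0.05. PKMYT1 and CLSPN have the widest range, from -3.51 for PKMYT1 in RPE-1 WT cGAS cells to 3.64 for CLSPN in DKO against XRCC4 KO cells under ATRi.

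The order of the 6 groups differed between the genes. For PKMYT1 and CLSPN it was the same, with DKO highest, then p53 KO, DKO with ATRi, WT, XRCC4 KO and XRCC4 KO with ATRi. In both genes, and in WEE1, no neighbours in the gene's order overlapped. The share of all genes without such overlap is not given here, so its lack is not read as particular to these genes. WEE1 differed from them at the top, where p53 KO at 53.4 and 57.6 CPM stood above DKO at 48.7 and 47.7 CPM. ATM had the XRCC4 KO group highest and DKO with ATRi lowest, and 2 of its 5 pairs of neighbours overlapped. ATR had the same highest and lowest groups, and 3 of its 5 pairs overlapped. RAD17 was highest in DKO with ATRi and lowest in DKO, over a range of 22.1 to 29.2 CPM.

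In the first experiment the replicates of the WT and STING KO groups lay furthest apart, and few of the 10 genes were called. Irradiated WT cells at 3 days had 0 genes called against untreated cells by edgeR, with 3.75% of the 15190 genes tested called higher and 2.65% lower, and DESeq2 called 0 of the 10 as well. Without untreated replicate 2, CHEK2 alone was called. An unadjusted p under 0.05, to which the percentages in this paragraph do not apply, was reached by 0 of the 10. At 5 days against untreated, 1 gene fell and 0 rose, while 14.6% of genes tested were called higher and 13.3% lower. ATM was at 152.6 and 147.5 CPM untreated, 112.7 and 133.1 CPM at 3 days and 105.5 and 120.4 CPM at 5 days (5 days against untreated -0.41 ± 0.14, edgeR adjusted p = 0.0467). The ATM call was lost without any 1 of the 4 libraries (adjusted p of 0.0636 to 0.255) and with DESeq2-type size factors (0.0544). Between 5 and 3 days 0 of the genes were called by edgeR or DESeq2, while 0.0132% of genes tested were called higher and 0.00658% lower. ATR was the 1 gene with an unadjusted p under 0.05, at 76.2 and 73.2 CPM at 5 days against 54.6 and 61.9 CPM at 3 days (0.36, 95% interval 0.07 to 0.65, edgeR adjusted p = 0.261).

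The untreated libraries show the spread that limits these comparisons. CLSPN was at 1.24 and 5.87 CPM in them, PKMYT1 at 4.39 and 14.5 CPM, CHEK1 at 20.0 and 36.6 CPM and WEE1 at 12.4 and 23.4 CPM. In each of the 4 genes the second library was higher, as it was in the other WT groups of this experiment. The mitotic list was at 2.86 and 4.62 in the same libraries, and the part of that difference in the comparisons was not tested.

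With CDK1i 1 of the 10 genes passed the test, ATRIP (0.71 ± 0.17, edgeR adjusted p = 0.0271), while 4.27% of genes tested were called higher and 6.41% lower. ATRIP was at 16.6 and 21.7 CPM with CDK1i, against 10.5 and 12.9 CPM with DMSO, and its call was lost without either DMSO library or CDK1i replicate 2. The count of genes called ran from 0 with only the groups compared and on FPKM to 6 without the low-count filter, which added PKMYT1, CLSPN, WEE1, CHEK1 and CHEK2. PKMYT1 was at 21.1 and 45.9 CPM with CDK1i, against 8.59 and 12.1 CPM with DMSO (1.69 ± 0.51, adjusted p = 0.061), and was called by DESeq2 (adjusted p = 0.00975). CLSPN was at 10.0 and 18.5 CPM with CDK1i, against 4.95 and 6.76 CPM with DMSO (1.28, 95% interval -0.24 to 2.80). Among the surrounding genes CDKN1A fell to 541 CPM with CDK1i, against 1107 CPM with DMSO, and RFC2 and RAD1 rose. The mitotic list was at 5.12 and 6.46 with CDK1i, against 4.05 and 4.57 with DMSO.

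In cGAS KO and in STING KO cells 0 of the 10 genes were called against irradiated WT at 5 days, while 6.21% of genes tested were called higher and 6.32% lower in cGAS KO, and 7.06% higher and 7.1% lower in STING KO. DESeq2 called 0 in both as well, and without the low-count filter CHEK1 was called in both. At an unadjusted p under 0.05 there were 0 of the 10 genes in cGAS KO and 1 in STING KO, ATM. The percentages above are for adjusted p and do not apply to this cut-off. ATM was at 160.3 and 141.0 CPM in STING KO libraries, against 105.5 and 120.4 CPM in WT libraries (0.42 ± 0.14, edgeR adjusted p = 0.0695). CHEK1 was at 36.7 and 35.2 CPM in cGAS KO, against 19.1 and 27.7 CPM in WT (0.62, 95% interval -0.09 to 1.32).

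XRCC4 KO cells at 5 days had 1 gene higher and 2 lower, while 11.9% of genes tested were called higher and 12.1% lower. CLSPN was at 1.04 and 0.772 CPM in XRCC4 KO libraries, against 4.95 and 6.76 CPM in WT libraries (-2.67 ± 0.83, edgeR adjusted p = 0.0429). PKMYT1 was at 3.12 and 2.41 CPM in XRCC4 KO, against 8.59 and 12.1 CPM in WT (-1.90 ± 0.58, 0.0392). ATM was at 154.1 and 153.3 CPM in XRCC4 KO, against 105.5 and 120.4 CPM in WT (0.44 ± 0.14, 0.0386). The groups did not overlap in these 3 genes, and on counts each had moved in the same direction in XRCC4 KO cells at 3 days. On FPKM ATM differed by 0.04 and CLSPN by -2.52 at 5 days, and neither was called. CHEK1, which rose at 3 days, was at 17.3 and 17.1 CPM in XRCC4 KO at 5 days, against 19.1 and 27.7 CPM in WT (-0.45, 95% interval -1.17 to 0.27). Without any 1 of the 4 libraries 0 of the 10 genes were called. Of 25 mitotic genes 20 fell, and the list was at 2.02 and 1.91 in XRCC4 KO, against 4.05 and 4.57 in WT.

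**Figure D3:**
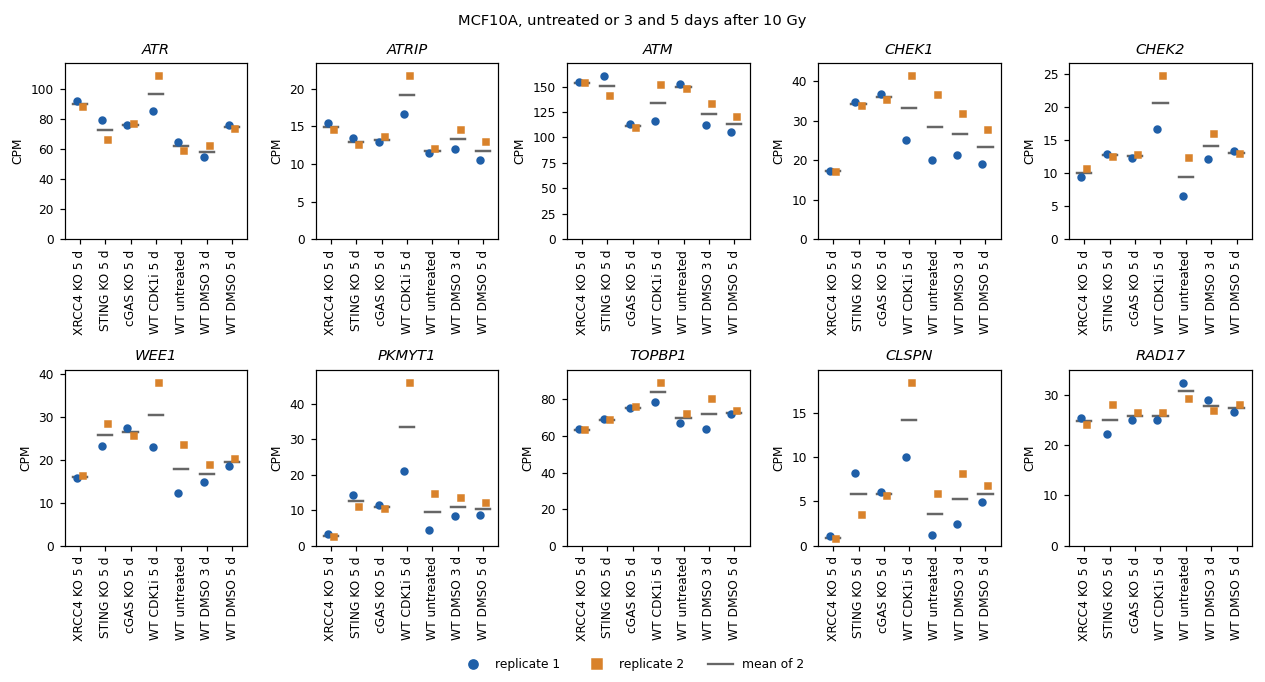
Level of each gene in CPM (vertical axis, linear, from 0) in the 7 MCF10A groups of the first experiment, with the 2 libraries of a group as circle and square and their mean as a bar. The untreated and CDK1i libraries lie far apart in PKMYT1, CLSPN, WEE1 and CHEK1, and PKMYT1 and CLSPN are lowest on average in XRCC4 KO.

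In RPE-1 cells, all irradiated with ATRi, p53 KO libraries had 6 of the genes higher and 2 lower than WT libraries, while 34.3% of the 15469 genes tested were called higher and 32.6% lower. PKMYT1 was at 24.1 and 20.4 CPM in p53 KO, against 9.21 and 7.43 CPM in WT (1.42 ± 0.12, edgeR adjusted p = 4.16e-10). CLSPN was at 28.5 and 24.7 CPM in p53 KO, against 12.6 and 12.5 CPM in WT (1.09 ± 0.10, 1.56e-09). CHEK1 was at 35.9 and 30.9 CPM in p53 KO, against 22.3 and 20.4 CPM in WT (0.64 ± 0.09, 2.53e-06). The 6 genes that rose, with WEE1 (0.51 ± 0.07), TOPBP1 (0.43 ± 0.07) and CHEK2 (0.42 ± 0.14), also rose in p53 KO MCF10A cells. That MCF10A comparison had no ATRi, and its CHEK1 call was lost with DESeq2. The same 6 genes rose in MCF10A DKO against XRCC4 KO cells under ATRi. CHEK2 lost its call with DESeq2 (adjusted p = 0.111).

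ATR fell to 37.8 and 35.9 CPM in RPE-1 p53 KO libraries, against 47.9 and 48.7 CPM in WT libraries (-0.39 ± 0.06, edgeR adjusted p = 9.19e-06). On FPKM ATR differed by -0.29 and was not called. ATM was lower on counts by a smaller margin (-0.15 ± 0.06, 0.03), but was 0.27 on FPKM, where the median of all genes was shifted by 0.33, and lost its call with DESeq2 (0.105). Of 9 clamp and clamp loader genes 7 rose, among them RFC3 and RAD9A. Of 12 mitotic entry targets 11 rose, and CDKN1A fell to 193 CPM in p53 KO, against 2050 CPM in WT. All 25 mitotic genes rose, and their level was 5.86 and 5.64 in p53 KO, against 3.69 and 3.58 in WT.

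RPE-1 cells labelled WT cGAS had 3 genes higher and 6 lower than WT, while 30% of genes tested were called higher and 30.2% lower. PKMYT1 was at 0.711 and 0.729 CPM in WT cGAS libraries, against 9.21 and 7.43 CPM in WT libraries (-3.51 ± 0.23, edgeR adjusted p = 4.88e-12), its lowest level of any group. Each WT cGAS library held only 13 PKMYT1 counts. CLSPN was at 2.52 and 2.81 CPM in WT cGAS, against 12.6 and 12.5 CPM in WT (-2.23 ± 0.15, 6.38e-12). CHEK2 rose to 16.6 and 15.2 CPM in WT cGAS, against 7.43 and 5.97 CPM in WT (1.25 ± 0.13, 7.04e-09). PKMYT1 and CLSPN fell and CHEK2 rose in these libraries, and the groups did not overlap in any of the 3 genes.

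The other calls in WT cGAS cells were small. CHEK1 (-0.43 ± 0.10) and ATR (-0.20 ± 0.06) fell and RAD17 (0.23 ± 0.07) rose. ATRIP and TOPBP1 were lower on counts (-0.34 ± 0.13 and -0.18 ± 0.07) but 0.34 and 0.19 on FPKM, and ATM was higher on counts (0.14 ± 0.06) but -0.02 on FPKM, where the median of all genes was shifted by 0.21. DESeq2 called 4 of the 10 genes in place of 9. All 25 mitotic genes fell, and the list was at 1.504 and 1.11 in WT cGAS, against 3.69 and 3.58 in WT. CDKN1A rose to 3542 CPM in WT cGAS, against 2050 CPM in WT, and PPM1D, the phosphatase that ends ATM and CHEK2 signalling, to 56.3 CPM, against 22.8 CPM.

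**Figure D4:**
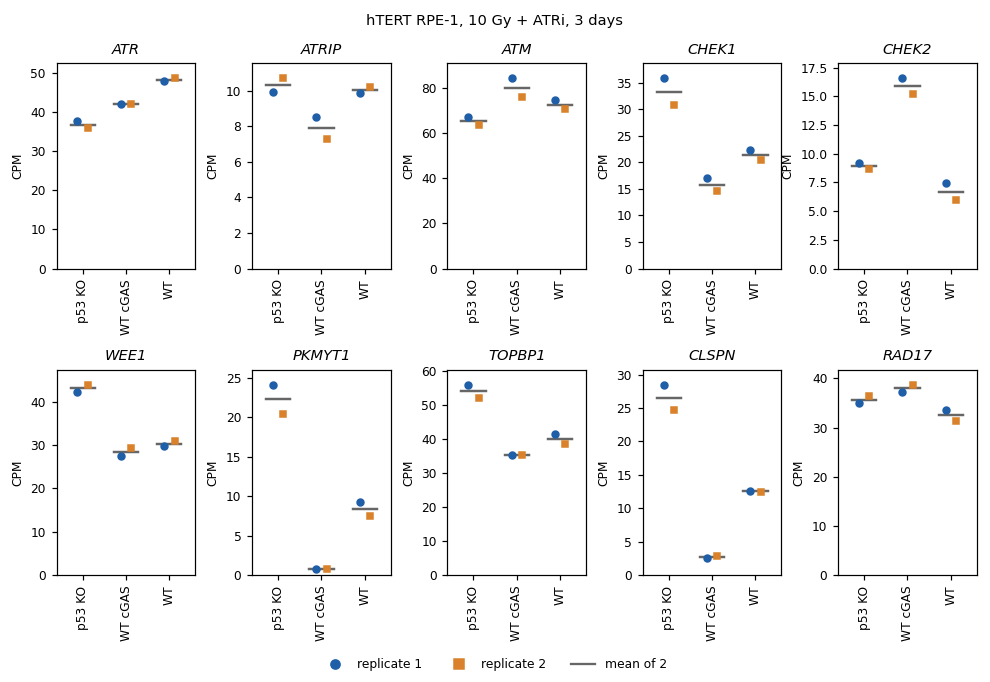
Level of each gene in CPM (vertical axis, linear, from 0) in the 3 RPE-1 groups, all irradiated with ATRi, with the 2 libraries of a group as circle and square and their mean as a bar. PKMYT1 and CLSPN are lowest in WT cGAS and highest in p53 KO, CHEK2 is highest in WT cGAS, and ATR is lowest in p53 KO.

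Across the 13 MCF10A groups, after the mean of each experiment was taken off, the genes differed in how closely they tracked the mitotic list. Pearson's r with the mean log2 CPM of the list was 0.994 for CLSPN, 0.992 for PKMYT1, 0.929 for TOPBP1, 0.906 for WEE1 and 0.872 for CHEK2. It was 0.745 for CHEK1 and 0.323 for ATRIP. It was negative for RAD17 at -0.148, ATR at -0.408 and ATM at -0.696. The list of 25 replication genes gave similar values, so the pattern was not particular to the mitotic list. With that list r was 0.987 for PKMYT1, 0.980 for CLSPN, 0.950 for TOPBP1, 0.901 for WEE1 and 0.883 for CHEK2. It was 0.681 for CHEK1, 0.375 for ATRIP, -0.117 for RAD17, -0.375 for ATR and -0.691 for ATM. Among the genes themselves PKMYT1 and CLSPN had an r of 0.988, WEE1 and TOPBP1 0.944, and ATR and ATM 0.630. These values describe 13 group means that share libraries and normalisation, and carry no test.

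**Figure D5:**
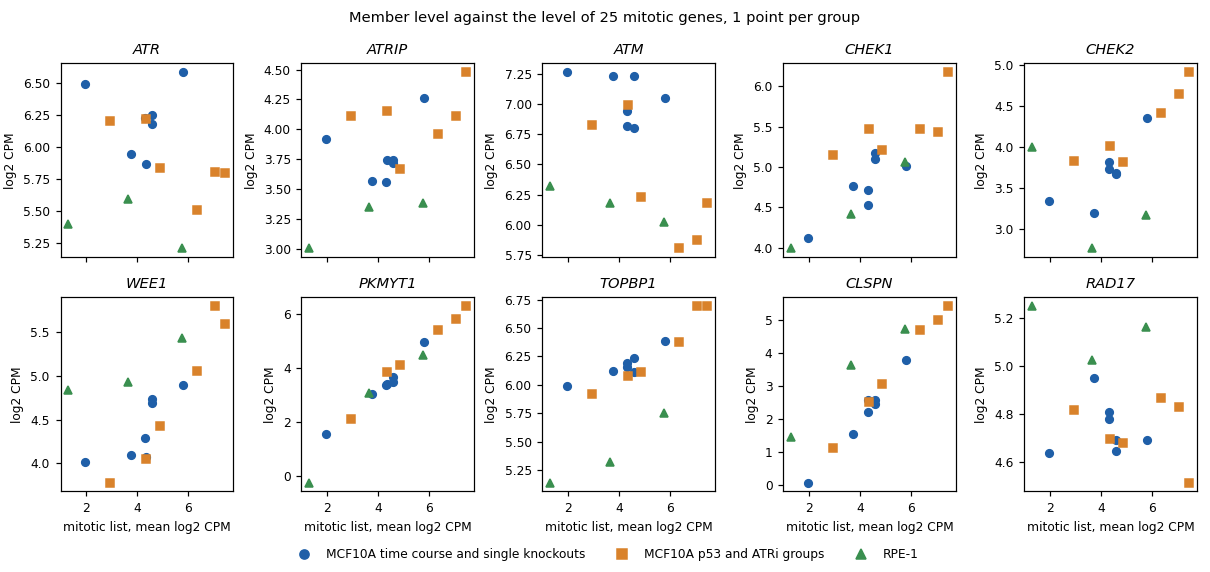
Mean log2 CPM of each gene (vertical axis) against the mean log2 CPM of 25 mitotic genes (horizontal axis), 1 point per group, with MCF10A groups of the first experiment as circles, of the second as squares, and RPE-1 groups as triangles. CLSPN and PKMYT1 tend to be higher where the list is higher in each experiment, though CLSPN departs from this order among some groups of the first experiment. Across MCF10A groups ATM has a Pearson's r of -0.696 with the list.

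The genes whose pattern over the 13 groups was most like that of WEE1 were RACGAP1, CCSAP and MELK (r of 0.972, 0.967 and 0.967 among 13669 genes searched). For CHEK1 they were RRM1, RSBN1L and CAPN7 (0.861, 0.846 and 0.841). For ATM they included ACAT1 and ATP5S (0.958 and 0.946), and for ATR they were ESRP2, NOP9 and ARPC4 (0.949, 0.945 and 0.944). CHEK1 had the weakest best match of the 4.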

How the data were processed

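The study measured polyadenylated RNA in 32 libraries of 16 groups. The deposited table holds estimated counts per gene, of which 96.0 to 97.3% of values per library, zeros included, were whole, and they were rounded for the count tests. A matching deposited table holds FPKM values computed by the authors, and the gene lengths they used are not stated. Tools listed, per the submitters' processing notes, are STAR, Cuffnorm, DESeq2, FastQC and bcl2fastq, without roles, with hg19 as the build. Strandedness of counting is not stated.

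Each experiment was fitted on its own over all of its libraries with edgeR 4.0.16 (R 4.3.3), using TMM scaling, its low-count filter and robust quasi-likelihood tests, with Benjamini-Hochberg adjustment over all genes and a call at an adjusted p below 0.05. This left 15190, 16632 and 15469 genes, a common biological coefficient of variation of 0.188, 0.0361 and 0.0346 and 7, 6 and 3 residual degrees of freedom. A standard error is the log2 fold change's own error from that fit. CPM use the TMM-scaled library size, and list levels are mean log2 CPM with a prior count of 2. The script was tested on simulated data. Alternatives were RLE scaling, no filter, DESeq2 1.42.0, limma 3.58.1 on log2(FPKM + 0.1) or log2(FPKM + 1), only the groups compared, a replicate block, and each library left out. A sign change is called a reversal only where the value was called.

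The genes and lists were chosen with earlier results of these data known. Named are the 10 genes, at most 2 called genes per direction from each pathway list with the largest change and a mean of at least 1 CPM, and for ATR, ATM, CHEK1 and WEE1 the 3 genes with the highest correlation over 13 MCF10A groups, of which 1 for ATM is not reported here.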

Additional observations from a re-analysis of the deposited data

Results flagged for a closer look

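The test of a difference between effects passed for 11 values, described above with their errors. For the ATRi effect in DKO minus that in XRCC4 KO these were 0.90 for PKMYT1, 0.70 for CLSPN, -0.48 for ATRIP, -0.39 for CHEK1 and -0.28 for ATR. For the p53 effect without XRCC4 minus that in WT they were 1.01 for CLSPN, 0.74 for PKMYT1, 0.48 for CHEK1, -0.33 for RAD17, -0.39 for ATR and -0.46 for ATM. Of all genes tested, 13.3% were called higher and 21.3% lower for the difference of the ATRi effect. For the difference of the p53 effect 21.3% were called higher and 23.1% lower. The number of values that passed is therefore not read as particular to the 10 genes. Groups of 2 libraries allow no test for a single sample far from its group.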

How the results depend on the processing

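Of 87 called values of the 10 genes, 62 kept their call and direction in every setting on counts and 33 in every setting including FPKM. The count of genes called changed most on FPKM with pseudocounts of 0.1 and 1, to 2 and 3 in place of 10 for ATRi in DKO, 1 and 1 in place of 3 for ATRi in XRCC4 KO, 3 and 3 in place of 7 for XRCC4 KO at 3 days, 1 and 1 in place of 8 for DKO against p53 KO, 2 and 2 in place of 6 for the difference of the p53 effect, 0 and 0 in place of 5 for the difference of the ATRi effect, 3 and 3 in place of 9 for RPE-1 WT cGAS, and 0 and 0 in place of 1 for CDK1i and for 5 days against untreated. With a pseudocount of 1 it was 1 in place of 3 for XRCC4 KO at 5 days. Without the filter it was 5 for ATRi in XRCC4 KO, 6 for CDK1i, and 1 in place of 0 for cGAS KO and for STING KO. With only the groups compared it was 0 for CDK1i and for 5 days against untreated and 1 for cGAS KO, and with RLE scaling 0 for 5 days against untreated. With DESeq2 it was 2 for CDK1i, 3 for the difference of the ATRi effect and 4 for RPE-1 WT cGAS. The labels do not say that a replicate number marks a shared batch. Between the 4 WT groups of the first experiment, deviations of same-numbered libraries correlated at 0.245 to 0.439, and between its other pairs of groups at -0.265 to 0.116. The replicate block gave 2 in place of 1 for CDK1i, where PKMYT1 gained a call (1.65, edgeR adjusted p = 0.0464), and changed no other call of the 10 genes.

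With each library left out in turn, counts ran from 0 to 3 for CDK1i, 3 to 7 for the difference of the ATRi effect, 5 to 6 for that of the p53 effect, 6 to 7 for DKO against p53 KO, 5 to 7 for XRCC4 KO at 3 days and for RPE-1 WT cGAS, and 0 to 1 for 3 days and for 5 days against untreated, and stayed at 0 for XRCC4 KO at 5 days. They were 8 to 9 for DKO against XRCC4 KO, 7 to 8 for p53 KO, 7 for RPE-1 p53 KO, and unchanged for both ATRi comparisons and for DKO against XRCC4 KO under ATRi. The direction reversed on FPKM (pseudocounts 0.1 and 1) for ATM in p53 KO (0.15 and 0.14), in RPE-1 p53 KO (0.27 and 0.26) and in RPE-1 WT cGAS (-0.019 and -0.018), ATRIP (0.34 and 0.28) and TOPBP1 (0.19 and 0.17) in RPE-1 WT cGAS, and RAD17 in DKO against XRCC4 KO (0.11 and 0.10). The cause was not tested. Over all genes, calls higher and lower on FPKM (pseudocount 0.1) were 4091 and 2057 in p53 KO against 4290 and 4471 on counts, 2036 and 5000 in XRCC4 KO at 3 days against 4759 and 4638, 6387 and 2423 in DKO against XRCC4 KO against 5377 and 5443, and 6439 and 1919 in RPE-1 p53 KO against 5308 and 5042. They were 4073 and 1922 for ATRi in DKO against 4196 and 5328 on counts, 8312 and 2220 for DKO against XRCC4 KO under ATRi against 5894 and 5986, 1570 and 715 where the ATRi effects of both genotypes were compared, against 2207 and 3544, 2647 and 1546 where both p53 effects were compared, against 3535 and 3834, and 4807 and 2120 in RPE-1 WT cGAS against 4646 and 4666. In the first experiment they were 426 and 2044 in XRCC4 KO against 1808 and 1844 on counts, 225 and 503 in cGAS KO against 943 and 960, 260 and 642 in STING KO against 1073 and 1079, 152 and 468 with CDK1i against 648 and 974, and 31 and 8 at 5 days set against 3 days, where counts gave 2 and 1. A group size of 2 and their spread in the first experiment limit what can be called there.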
